A study of Mus musculus with 6 samples.

Results

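The cells described here are cells of fetal dKO XY testes in which Sertoli and granulosa transcripts were counted together. A cell was taken when Cst9 made up at least 200 of every 1000000 of its UMIs (200 CPM), Rspo1, Foxl2 and Fst together at least 100 CPM, and Kctd14, a gene of supporting cells of both sexes, at least 300 CPM. Cells with 4000 CPM or more of Cyp17a1 and Cyp11a1 (Leydig cells), 5 or more Dazl UMIs (germ cells) or 2 or more Upk3b UMIs (surface epithelium) were left out. This gave 82 cells in dKO XY library 1 and 88 in dKO XY library 2, together 170 of the 13852 dKO XY cells and of the 39350 cells of all 6 libraries that passed the quality filter. The Cst9 condition with the Kctd14 condition and the exclusions is called the Sertoli arm below, and the Rspo1, Foxl2 and Fst condition with the same requirements is called the granulosa arm. The 170 cells pass both arms and are called co-expressing cells.

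The study asked what happens to the testis when the 2 TGF-beta family hormones of the fetal Sertoli cell, AMH and activin B, are both missing. Gonads at E15.5 were compared as single-cell RNA libraries, with 2 libraries each from control XY testis and control XX ovary, both Amh+/+ and Inhbb+/+, and from dKO XY testis, Amh-/- and Inhbb-/-. Both alleles are deleted in the germline and so in every cell, and effects within Sertoli cells and effects passed on from other cells cannot be told apart in this model. All animals came from a C57BL/6 background, both gonads of an animal were pooled, suspensions were frozen and thawed before capture, and the number of animals behind each library was not given in the sources used here.

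Sertoli cells and granulosa cells are the supporting cells of testis and ovary and arise from a common progenitor. SOX9, DMRT1 and FGF9 hold the Sertoli fate, while FOXL2, RUNX1 and WNT4 with R-spondin 1, which act through beta-catenin, hold the granulosa fate, and each side represses the other. Single-cell capture can also place a pair of cells in 1 droplet, which gives the same mixture of transcripts, and free RNA adds low counts to every droplet.

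The 5 genes that chose the cells lie apart in the genome (GRCm38, GENCODE M21). Cst9, which encodes the Sertoli cystatin testatin, is at chr2:148835147-148838738 on the plus strand, Rspo1 at chr4:124986430-125009099 on the plus strand, Foxl2 at chr9:98955288-98958543 on the plus strand, Fst, the activin-binding follistatin, at chr13:114452290-114458951 on the minus strand, and Kctd14 at chr7:97451323-97459557 on the plus strand. Their values are a description, since they were used to choose the cells. Summed over the co-expressing cells of a library, Cst9 stood at 1251 and 1116 CPM in dKO XY 1 and 2, against 1298 and 1174 CPM in the Sertoli-arm cells of control XY 1 and 2. Rspo1 stood at 176 and 160 CPM, against 258 and 218 CPM in the granulosa-arm cells of control XX 1 and 2. Foxl2 reached 47.1 and 69.4 CPM and Fst 93.1 and 75.5 CPM, against 214 and 184 CPM and 1192 and 946 CPM in control XX. Cst9 was thus near its control XY level, Rspo1 below its control XX level, and Foxl2 and above all Fst far below. Within dKO XY Cst9 and Rspo1 stood lower than in the cells with 1 arm, where Cst9 was at 2600 and 2201 CPM with the Sertoli arm only and Rspo1 at 319.9 and 305 CPM with the granulosa arm only.

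Rspo1 was the gene of the granulosa arm counted in most co-expressing cells. Of the 170 cells, 156 (91.8%) held a Rspo1 UMI, 107 (62.9%) a Foxl2 UMI and 86 (50.6%) a Fst UMI. All 3 genes were counted in 53 cells, 2 of them in 73 cells and 1 in 44 cells. The arm consisted of a single UMI in 11 cells, of 2 UMIs in 13 cells and of 3 or more in 146 cells. Its level had a median of 245 CPM, from 100 to 2376 CPM, and Cst9 a median of 696 CPM, from 200 to 7371 CPM.

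Many cells lay close to the thresholds. Within the rule, 46 of the 170 cells had a granulosa arm of 100 to under 150 CPM and 36 had Cst9 at 200 to under 300 CPM. Just outside it, 50 of 651 dKO XY 1 cells and 41 of 342 dKO XY 2 cells with the Sertoli arm only had a granulosa arm of 50 to under 100 CPM, and 50 of 497 and 46 of 451 cells with the granulosa arm only had Cst9 at 100 to under 200 CPM. Far from the threshold, the granulosa arm was at 0 in 513 and 249 of the cells with the Sertoli arm only, and Cst9 was at 0 in 237 and 188 of the cells with the granulosa arm only.

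Each comparison below uses the UMIs summed over the cells of a set in each library. The sets are the 170 co-expressing cells, 993 dKO XY cells with the Sertoli arm only, 948 dKO XY cells with the granulosa arm only, 584 control XY Sertoli-arm cells and 4237 control XX granulosa-arm cells. The sums of the co-expressing cells held 2566747 and 3614950 UMIs, and the others 6323496 to 83255757 UMIs. Passing cells had a median of 18415 to 27124 UMIs by library, and 4 to 25 cell barcodes were shared by any pair of libraries. Barcodes with 25% or more mitochondrial UMIs, removed by the filter, were 24.4% and 28.3% of the dKO XY libraries and 2.22% to 9.35% of the 4 control libraries. Xist, the transcript of the inactive X chromosome, stood at 0 and 0.277 CPM in the co-expressing cells of dKO XY 1 and 2 against 1725 and 1391 CPM in control XX, as the labels give their sex.

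In the dKO testis, a sizeable minority of Sertoli-arm cells also carried the granulosa arm, and in the control testis almost none did. The co-expressing cells were 82 of 733 Sertoli-arm cells in dKO XY 1, or 11.2% (exact 95% interval 9.0% to 13.7%), and 88 of 430 in dKO XY 2, or 20.5% (16.7% to 24.6%). Counted from the other side, they were 14.2% of 579 and 16.3% of 539 granulosa-arm cells. In control XY 1 the same rule found 1 of 197 Sertoli-arm cells, or 0.508% (0.0129% to 2.80%), and in control XY 2 it found 0 of 387, where 3 counts of 387 would be a share of 0.775% and the exact 95% interval reaches 0.949%. Both dKO XY shares lay above both control XY shares, and the intervals of the 2 dKO XY libraries did not overlap each other. Control XY 1 and 2 held only 5 and 8 granulosa-arm cells. Few droplets with a Sertoli and a granulosa-like cell could arise there. The control XY shares are thus no background for such droplets or for free granulosa RNA. The intervals cover counting error only, and the rule itself fixes these shares, so no test was run. With 2 libraries against 2, an exact permutation test could not go below p = 0.333.

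**Figure D1:**
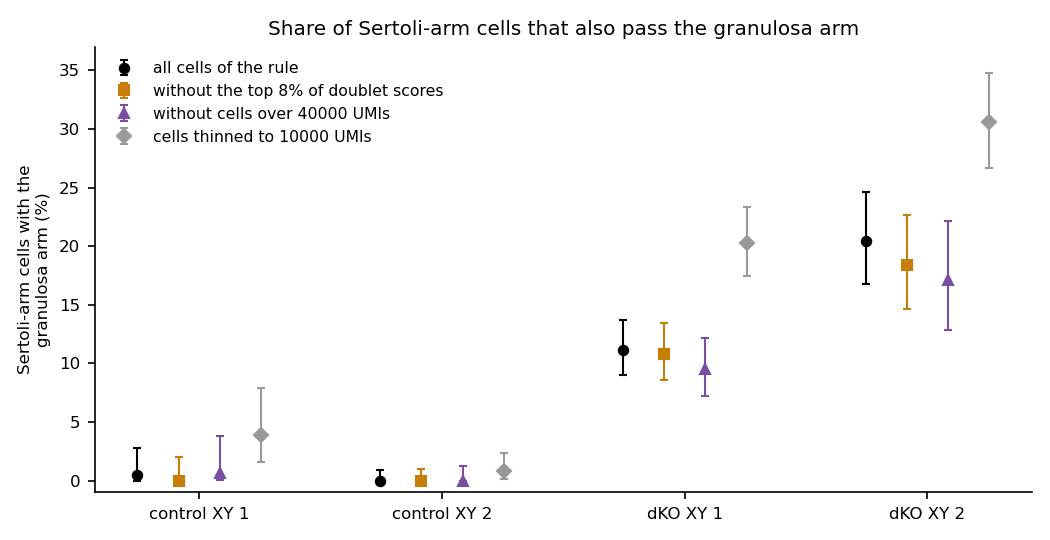
Share of Sertoli-arm cells that also pass the granulosa arm (%, vertical axis) in the 2 control XY and 2 dKO XY libraries, under the rule, without the cells with the highest doublet scores, without the deepest cells and after thinning to equal depth. Points are shares and bars are exact 95% binomial intervals, and in each of the 4 settings both dKO XY libraries lie above both control XY libraries.

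The size of these shares moved with the setting. After cells of at least 10000 UMIs were thinned to 10000 UMIs, where a single UMI meets the 100 CPM limit, they were 20.3% (17.5% to 23.4%) and 30.6% (26.7% to 34.7%) in dKO XY against 3.93% and 0.811% in control XY. Shallower cells were left out. Thinning also changed which cells passed the Sertoli arm, with 753 and 529 cells in dKO XY against 733 and 430 before. Without the 8% of cells with the highest doublet score in each library they were 10.8% and 18.4%, and without cells over 40000 UMIs 9.52% and 17.2%. The dKO XY libraries stood above the control XY libraries in each of these settings.

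Cells of 3 other types were read against the granulosa limit of 100 CPM. In dKO XY 1 and 2, 9 of 570 (1.58%) and 9 of 592 (1.52%) Leydig cells reached 100 CPM of Rspo1, Foxl2 and Fst, at a median depth of 38980 and 41200.5 UMIs against 25780 and 36836 UMIs in the co-expressing cells. In endothelial cells the values were 3.0% and 5.76%, and in immune cells 1.69% and 2.22%. The shares of 11.2% and 20.5% in Sertoli-arm cells stood above each of these 6 values, but a deeper cell needs more UMIs to reach 100 CPM, so the depths were also made equal, a step added after seeing the data. Thinned to 10000 UMIs, with 7 and 3 shallower cells left out, 16.2% of 563 (13.2% to 19.5%) and 13.8% of 589 (11.1% to 16.8%) Leydig cells held the granulosa arm. Endothelial cells then gave 8.62% of 232 and 10.5% of 124, and immune cells 7.65% of 170 and 9.41% of 85. The thinned share of Sertoli-arm cells was above the thinned Leydig share in both libraries, with intervals that overlapped in dKO XY 1 and did not in dKO XY 2. At that depth 1 UMI is enough for the limit, and the arm rested on 1 UMI in 11 of the 170 co-expressing cells as sequenced. The 3 kinds of cells were taken with Kctd14 under 300 CPM. Unthinned, Leydig cells held a mean of 16.3 and 16.9 CPM of Rspo1, Foxl2 and Fst in dKO XY, and 13.6 and 13.1 CPM in control XY. Endothelial cells held 13.7 and 27.1 CPM in dKO XY and 2.80 and 4.11 CPM in control XY. Immune cells held 8.71 and 10.6 CPM in dKO XY and 3.45 and 5.00 CPM in control XY. How much of the Leydig share was free RNA and how much the cells' own transcripts was not tested.

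Sertoli markers were also counted together with markers of other cell types. Among cells with 200 CPM of Cst9 and 300 CPM of Kctd14, with no other condition, 96 of 809 (11.9%) in dKO XY 1 and 132 of 573 (23.0%) in dKO XY 2 also passed the granulosa limits. Of the same cells, 6 (0.742%) and 6 (1.05%) passed the Leydig limit of 4000 CPM. In the whole libraries 630 and 689 cells passed the Leydig limit, and 700 and 754 cells the granulosa limits. Endothelial markers (Pecam1, Cdh5 and Kdr, at least 300 CPM) occurred in 4 and 8 of the 809 and 573 cells, and immune markers (Tyrobp, Fcer1g and Ptprc, at least 500 CPM) in 3 and 1. These are the genes of the rule, Kctd14 enters both the Sertoli and the granulosa limits and so favours that pair by construction, and the limits for each cell type differ, so these counts are set side by side without a test.

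Some measures of doublets and depth were higher in co-expressing cells than in cells with 1 arm, and others were not. The doublet score computed by Scrublet had a median of 0.0493 and 0.0688 in co-expressing cells of dKO XY 1 and 2, against 0.0229 and 0.0250 with the Sertoli arm only and 0.0388 and 0.0417 with the granulosa arm only. Of the co-expressing cells, 10 of 82 (12.2%) and 19 of 88 (21.6%) were among the 8% of highest scores of their library, against 8.91% and 10.5% with the Sertoli arm only and 65 of 497 (13.1%) and 54 of 451 with the granulosa arm only, so that in dKO XY 1 the share was below that of granulosa-arm-only cells. Scrublet's own threshold called 5 of 82 (6.10%) and 5 of 88 (5.68%) of them doublets, against 47 of 651 (7.22%) and 22 of 342 (6.43%) with the Sertoli arm only and 23 of 497 (4.63%) and 15 of 451 (3.33%) with the granulosa arm only. That threshold marked between 1 and 250 cells a library, and under 0.5% of the cells in 3 of the 6 libraries, where it had not worked. Cells over 40000 UMIs made up 32.9% and 46.6% of the co-expressing cells, against 19.7% and 33.6% with the Sertoli arm only and 19.1% and 31.0% with the granulosa arm only. Shallow cells were frequent as well: 20.7% and 14.8% of the co-expressing cells had under 10000 UMIs, against 6.61% and 6.43% with the Sertoli arm only. The part of doublets and depth in the results below was not tested beyond the values given with each of them.

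Leaving out every cell over 40000 UMIs, with a doublet score in the top 8% or with a granulosa arm under 3 UMIs left 42 of 82 (51.2%) and 32 of 88 (36.4%) co-expressing cells, with a median of 23710.5 and 20726.5 UMIs. Summed over these cells, genes outside the rule were still counted from both programs. A sum does not show that both were counted in the same cell. Sox9, the transcription factor that starts Sertoli differentiation, stood at 302 and 277 CPM, Dhh, the hedgehog ligand of Sertoli cells, at 106 and 95.5 CPM, and Col9a3, a collagen chain, at 196 and 172 CPM. On the granulosa side Wnt4 stood at 190 and 206 CPM, Irx3 at 40.3 and 60.9 CPM and Gng13 at 122 and 151 CPM. Col9a3 was lower and Wnt4, Irx3 and Gng13 were higher in both libraries than over all co-expressing cells, whose values are given below, and Sox9 and Dhh lay close to theirs. Of the other Sertoli genes some were lower, as Defb19 at 883 and 565 CPM, and some higher, as Fgf9 at 43.6 and 33.2 CPM. The genes named are examples and do not show how far either list held. A minimum of 3 UMIs in cells under 40000 UMIs itself selects a higher granulosa arm, so these differences are a description of the filter as well.

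Single cells were placed between the programs by genes outside the rule. The UMIs of each cell, without the genes of the rule, Amh and Inhbb, were fitted as a mixture of the summed profile of Sertoli-arm-only cells and that of granulosa-arm-only cells, both taken from the other dKO XY library, and the granulosa share of the mixture was read. The co-expressing cells had a median granulosa share of 0.517 in dKO XY 1 and 0.492 in dKO XY 2. Sertoli-arm-only cells had a median of 0.0802 and 0.0475, and granulosa-arm-only cells one of 0.95 and 0.909. A share from 0.25 to 0.75 was found in 50 of 82 (61.0%) and 53 of 88 (60.2%) co-expressing cells, against 15.7% and 14.6% of Sertoli-arm-only and 16.1% and 14% of granulosa-arm-only cells. The others fell on either side: 13 and 20 co-expressing cells had a share under 0.25, like most Sertoli-arm-only cells, and 19 and 15 one over 0.75. Of the 42 and 32 cells left by the filters above, 22 and 16 had a share from 0.25 to 0.75. Their median share was 0.627 and 0.468. Intermediate shares were no property of dKO cells alone, as 22.8% and 10.9% of control XY and 20.7% and 8.46% of control XX cells had one against the same dKO profiles.

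**Figure D2:**
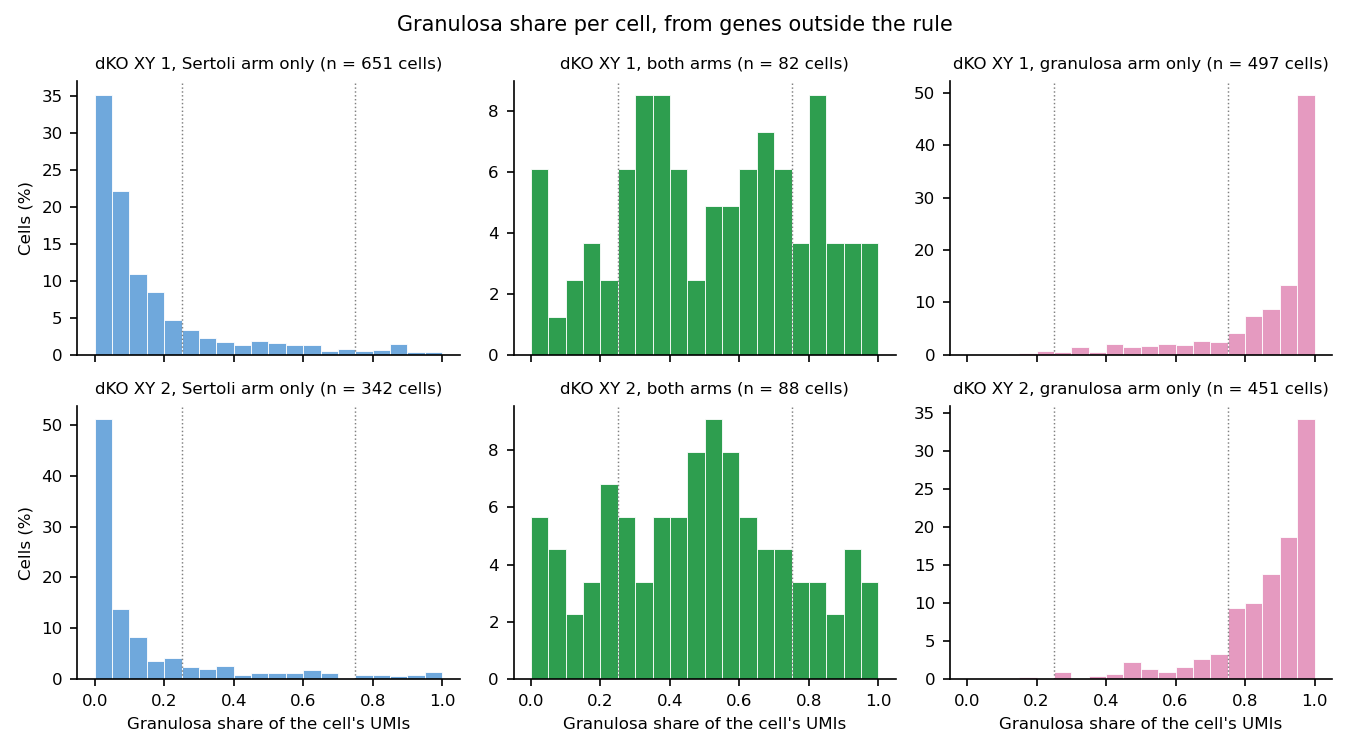
Percent of cells (vertical axis) by granulosa share (horizontal axis, 0 for the Sertoli-arm-only profile and 1 for the granulosa-arm-only profile) in the 3 dKO XY cell sets of each library, with dotted lines at 0.25 and 0.75. The co-expressing cells spread over the whole range, with 61.0% and 60.2% between the lines, while cells with 1 arm pile up at 1 end.

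A droplet with 1 cell of each kind would take an intermediate share as well, and this measure cannot tell it from a single cell. Among co-expressing cells over 40000 UMIs, 21 of 27 in dKO XY 1 and 26 of 41 in dKO XY 2 had an intermediate share. Among those of 15000 to 40000 UMIs it was 16 of 34 and 15 of 29, and among those under 15000 UMIs 13 of 21 and 12 of 18. Intermediate shares were thus found at every depth, and in dKO XY 1 most often in the deepest cells. Shallow cells with the granulosa arm only took them often as well, in 47 of 86 and 27 of 53 cells under 15000 UMIs, against 0 of 95 and 8 of 140 over 40000 UMIs. The summed median depths of the 2 sets with 1 arm, 47819 and 56130 UMIs, were reached by 17 (20.7%) and 31 (35.2%) co-expressing cells, against 12.5% to 17.5% of the cells with 1 arm.

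Counts of detected genes gave the same order. In cells thinned to 10000 UMIs, which left out 17 and 13 shallower ones, a co-expressing cell held a median of 15 of 34 Sertoli genes and 6 of 18 granulosa genes outside the rule, in both dKO XY libraries. Sertoli-arm-only cells held 20 and 19 Sertoli genes and 4 and 4 granulosa genes, and granulosa-arm-only cells 7 and 7 of each list. Control XY Sertoli-arm cells held 21 Sertoli and 2 granulosa genes and control XX granulosa-arm cells 7 and 6 Sertoli and 10 granulosa genes. Unthinned, the co-expressing cells held 19 and 21 Sertoli genes and 9 and 10 granulosa genes. The granulosa-arm-only cells of the dKO testis therefore fell short of the control XX count, and the co-expressing cells came within 1 gene of them.

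Summed over cells, the expression profile of the co-expressing cells lay between the 2 dKO XY sets with 1 arm. Position was counted from 0 at the Sertoli-arm-only level to 1 at the granulosa-arm-only level, over genes that differed at least 2-fold between these sets in the other library. Over the 599 and 746 genes higher with the Sertoli arm, the median position was 0.517 (quartiles 0.391 and 0.611) in dKO XY 1 and 0.504 (0.393 and 0.609) in dKO XY 2. Over the 469 and 494 genes higher with the granulosa arm it was 0.420 (0.260 and 0.617) and 0.386 (0.261 and 0.541). The medians of the genes higher with the Sertoli arm were thus near the midpoint, and those of the genes higher with the granulosa arm somewhat nearer to the Sertoli-arm-only level.

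The genes farthest from the mean of the 2 sets were also read. Of the genes that differed between the sets, 94.0% to 99.8% lay within 2-fold of that mean, by library and direction. Among 3235 genes with a mean of at least 50 CPM, 0 were 2-fold above it and 0 were 2-fold below it in both libraries. A level between those of the 2 sets can never be more than 2-fold above their mean. These shares and counts therefore do not place the cells at the midpoint. Above it by 0.5 or more on the log2 scale in both libraries were 4 genes: Podxl, a sialomucin of the cell surface, Ezr, the membrane linker ezrin, Sulf1, a heparan sulfatase, and the lectin gene Clec2l. Podxl stood at 88.4 and 111 CPM in co-expressing cells, against 30.1 and 38.9 CPM with the Sertoli arm only and 78.6 and 77.5 CPM with the granulosa arm only. The 9 genes below it included Pmepa1, Igfbp7, Rgs2, Col3a1, Gpc3, Socs2, Bgn and Col1a2, among which Col3a1, Col1a2 and Bgn are matrix genes of stromal cells. Col3a1 stood at 176 and 178 CPM, against 148 and 135 CPM and 379 and 428 CPM. The genes of this count were named after their values were seen and were not tested.

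**Figure D3:**
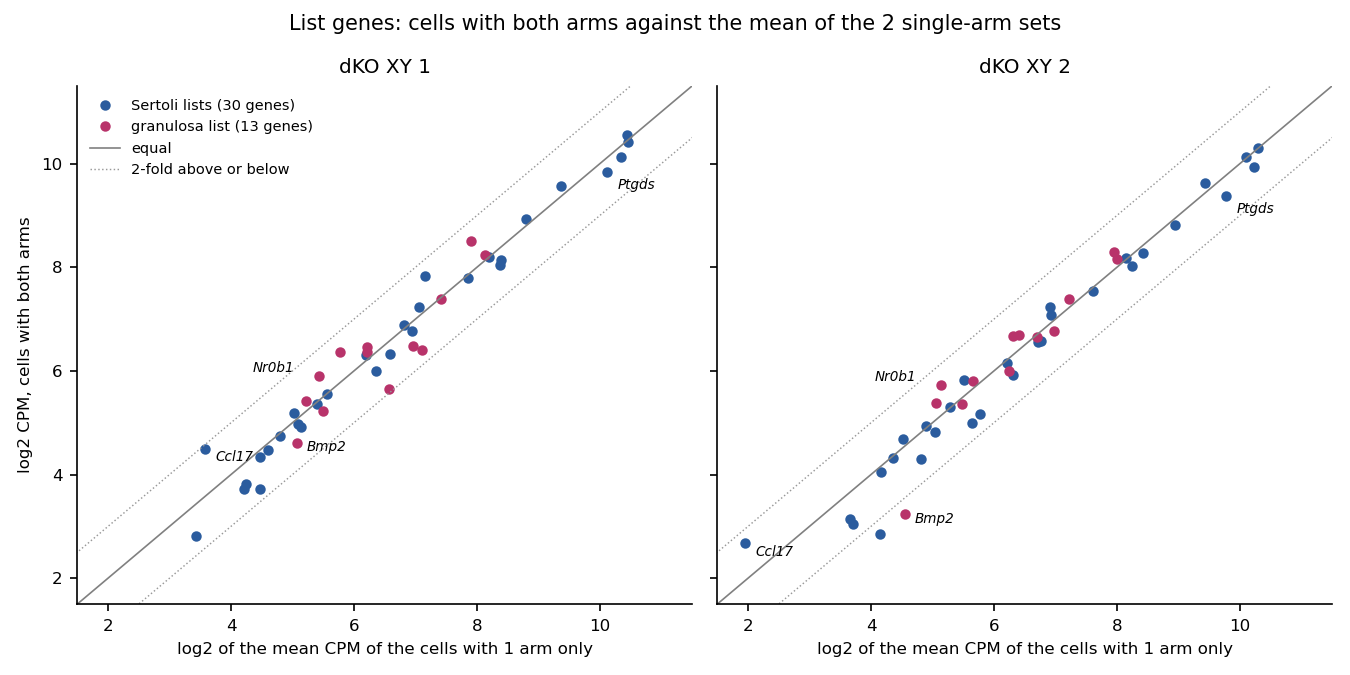
Level of the Sertoli and granulosa list genes in the co-expressing cells (vertical axis, log2 CPM) against the mean of the dKO XY cells with 1 arm (horizontal axis, log2 of the mean CPM), 1 point a gene, for each dKO XY library. Nr0b1 and Ccl17 lie above the line of equality in both libraries.

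In both libraries, 28 of 30 Sertoli list genes (93.3%) with a mean of at least 10 CPM had a level in co-expressing cells between those of the sets with 1 arm, and 9 of 13 granulosa list genes (69.2%) did. Over all 8842 genes of that level, which were not chosen for a difference between the sets, it was 43.2%. Above both sets in both libraries stood Nr0b1, Ccl17 and Rhox8 among others, as did 8.30% of all genes, and no list gene was below both.

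Sertoli genes outside the rule were far above control XX in the co-expressing cells, and many were below control XY. All cells compared with control XY had passed the same Cst9, Kctd14 and exclusion limits, but only the co-expressing cells had also been chosen for the granulosa arm, so that genotype and rule act together in it. By edgeR's quasi-likelihood test with Benjamini-Hochberg adjustment (threshold 0.05), 1534 of 13853 genes (11.1%) were higher and 1073 (7.75%) lower than in control XY, with a median log2 fold change of -0.009 over all genes. Of the 12 Sertoli transcription factors and signals 7 were lower and 2 higher (median -0.92), and of 22 secreted, membrane and enzyme markers 14 were lower and 2 higher (median -1.12). In cells of the middle range of depth these counts were 4 lower and 1 higher of the 12, and 13 lower and 0 higher of the 22. The 2 higher genes of each list became 1 without dKO XY 2 or without cells over 40000 UMIs. Against control XX, where 2177 genes (15.7%) were higher and 1833 (13.2%) lower (median -0.016), 11 of the 12 and 20 of the 22 were higher (medians 5.17 and 3.07) and 0 lower. The co-expressing cells were chosen for Cst9 and the control XX cells were not, so these counts describe the choice together with sex and genotype. The lists were chosen with results of these data known.

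Sox9 stood at 294 and 291 CPM in the co-expressing cells, against 406 and 403 CPM in control XY, 507 and 510 CPM with the Sertoli arm only, 81.6 and 59.5 CPM with the granulosa arm only and 83.3 and 83.3 CPM in control XX. The groups did not overlap, and the difference from control XY, -0.48 ± 0.12 (SE) on the log2 scale, passed the edgeR test (adjusted p = 0.0179). It did not pass when any of the 4 XY libraries was left out (adjusted p from 0.0733 to 0.102) or in cells of the middle range of depth, 19172 to 39678 UMIs (0.196). Dhh stood at 110 and 93.8 CPM, against 242 and 231 CPM in control XY and 0.625 and 0.722 CPM in control XX, a log2 fold change of -1.24 ± 0.13 from control XY (adjusted p = 0.000106). Dmrt1, a transcription factor that maintains the male fate, was at 20.3 and 19.9 CPM, less than its 44.9 and 41.4 CPM in control XY (log2 fold change -1.12, adjusted p = 0.000817, and 0.0559 in cells of the middle range of depth). For each of the 3 genes the 2 dKO XY libraries were close together and between the control XY and control XX values.

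The members of the Sertoli lists did not fall to a common extent. Hsd17b1, an enzyme that forms active sex steroids, had the largest fall, to 13.2 and 8.85 CPM from 336 and 286 CPM in control XY (-4.86 ± 0.27, adjusted p = 1.3e-06), and Kazald1, a secreted protein of the matrix, went to 64.3 and 36.0 CPM from 502 and 492 CPM (-3.35 ± 0.22). Hsd17b1 was also low in Sertoli-arm-only cells, at 31.7 and 18.5 CPM. Defb19, a beta-defensin, stood at 1126 and 977 CPM against 4377 and 3840 CPM in control XY, and Ptgds, which makes prostaglandin D, at 915 and 666 CPM against 1955 and 1945 CPM. Tesc, a calcium-binding protein, stood at 284 and 310 CPM against 677 and 761 CPM. All 5 genes fell by the edgeR test, and their libraries did not overlap.

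Of both Sertoli lists, 4 genes rose and 9 passed in neither direction. Aard stood at 1494 and 1119 CPM against 1395 and 1093 CPM in control XY (log2 fold change 0.05 ± 0.17, adjusted p = 0.876) and Col9a3 at 265 and 260 CPM against 315 and 329 CPM (-0.32 ± 0.12, adjusted p = 0.104, but 0.0116 without cells over 40000 UMIs), with both libraries below both control XY libraries. Fgf9, the secreted growth factor that supports Sox9, rose to 36.6 and 30.7 CPM from 7.12 and 8.53 CPM (2.06 ± 0.21, adjusted p = 8.29e-05). It was higher still with the Sertoli arm only, at 61.6 and 54.9 CPM, and low with the granulosa arm only, at 3.71 and 4.84 CPM. Cldn11, the claudin of Sertoli cell junctions, rose to 47.1 and 57.0 CPM from 23.9 and 25.2 CPM (1.07 ± 0.17, adjusted p = 0.00142, and 0.112 in cells of the middle range of depth). Gata1, an erythroid and Sertoli transcription factor, rose to 3.90 and 3.87 CPM from 1.42 and 0.753 CPM (1.93 ± 0.44, adjusted p = 0.0115), but its adjusted p was 0.0693 without dKO XY 2, 0.103 without control XY 2, 0.107 without cells over 40000 UMIs and 0.458 in the middle range of depth. Erbb3, a neuregulin receptor, passed the test at 14 and 25.7 CPM against 6.64 and 11.1 CPM (1.14 ± 0.33, adjusted p = 0.0361), but without dKO XY 2 its adjusted p was 0.408 and without control XY 1 it was 0.151. With the Sertoli arm only the marker genes stood higher than in co-expressing cells in both libraries, at 2636 and 2044 CPM for Aard, 654 and 597 CPM for Col9a3, 87.2 and 84.1 CPM for Cldn11 and 36.1 and 43.2 CPM for Erbb3.

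**Figure D4:**
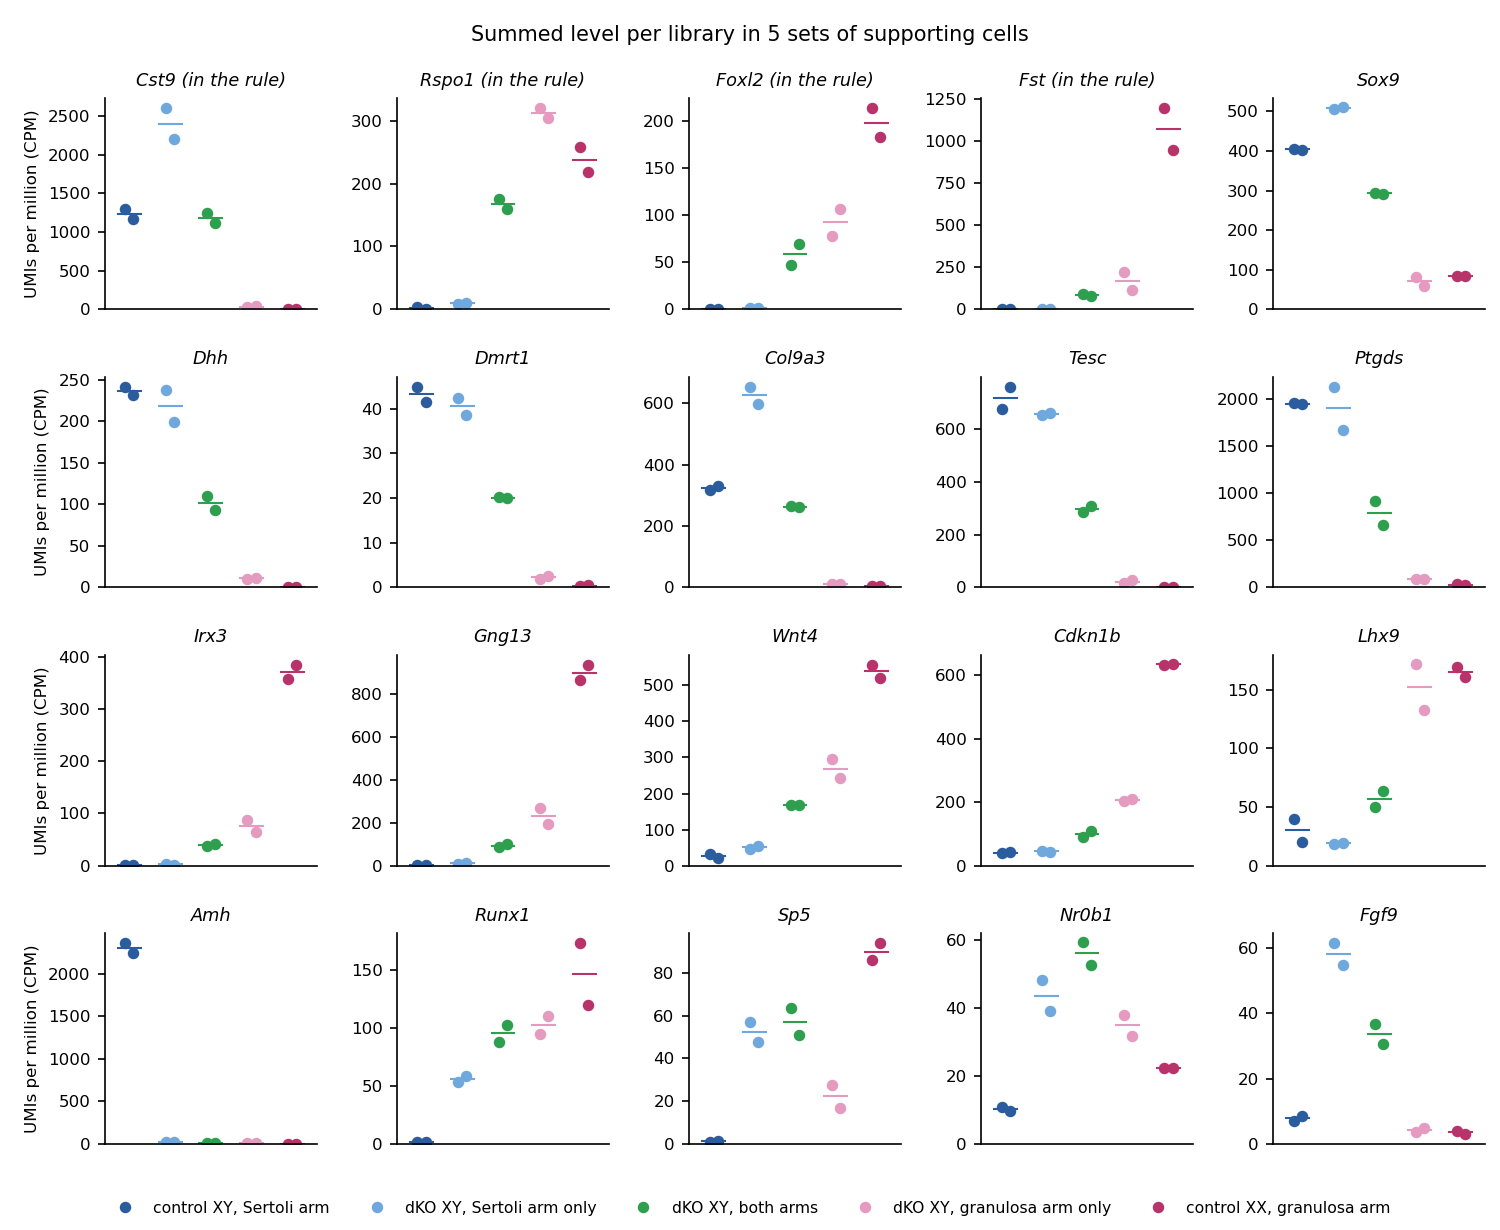
Level of 20 genes (vertical axes, CPM) in 5 sets of supporting cells, 1 point a library and the mean as a line, with the 4 genes of the rule marked. In the co-expressing cells Sox9, Dhh, Dmrt1, Col9a3, Tesc and Ptgds lie between the dKO XY sets with 1 arm, Irx3, Gng13, Wnt4, Cdkn1b and Lhx9 do so from the other side, and Runx1, Sp5, Nr0b1 and Fgf9 stand above control XY also with the Sertoli arm only.

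Granulosa genes outside the rule were raised over control XY in the co-expressing cells. The control XY cells had not been chosen for the granulosa arm, so the counts against them describe that choice together with genotype. Of 18 granulosa transcription factors and signals, 14 were higher and 0 lower (median log2 fold change 2.84), against 11.1% of all genes higher, and under the alternatives 10 to 15 were higher. Against control XX 13 of the 18 were lower and 1, Nr0b1, was higher (median -1.46). The 14 included Wnt4, Runx1, Irx3, Irx5, Bmp2, Nr0b1, Msx1, Kitl, Cdkn1b, Lhx9, Emx2, Gng13 and Igfbp2, and the 4 that did not pass the test were Esr2, Foxp1, Fzd1 and Calb1. The call of Kitl was lost when an XY library was left out, a fit with 1 library in a group. That of Irx5, at 1.56 and 0.83 CPM, was lost without dKO XY 1. Irx5 turned in sign without cells with a Dazl or Dppa5a UMI. Msx1, a homeobox gene, had 0 UMIs in both control XY sums and stood at 3.90 and 12.2 CPM in the co-expressing cells, at least 48.9-fold higher when 3 UMIs over the group are taken as the floor. That bound was 74.1-fold without dKO XY 1, 23.7-fold without dKO XY 2, 32.005-fold without control XY 1 and 16.9-fold without control XY 2.

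Several of these genes stood higher in co-expressing than in Sertoli-arm-only cells. Irx3, an Iroquois homeobox gene of pregranulosa cells, stood at 37.4 and 41.5 CPM in co-expressing cells and 358 and 385 CPM in control XX, against 1.74 and 0.92 CPM in control XY, 2.47 and 2.13 CPM with the Sertoli arm only and 87.6 and 64.4 CPM with the granulosa arm only. Gng13, a G protein subunit, stood at 84.9 and 100.4 CPM, against 1.90 and 1.51 CPM in control XY and 8.62 and 12.8 CPM with the Sertoli arm only. Wnt4, the WNT ligand of the fetal ovary, stood at 168 and 168 CPM, against 31.5 and 20.8 CPM and 47.5 and 55.3 CPM. With the Sertoli arm only, Gng13 and Wnt4 were also above control XY in both libraries, and so was Irx3, at low levels. Only the co-expressing cells had been chosen for the granulosa arm, so their differences from control XY describe that choice together with genotype. These differences were 4.99 ± 0.25 for Irx3 (adjusted p = 7.3e-07), 5.79 ± 0.21 for Gng13 (2.01e-07) and 2.69 ± 0.19 for Wnt4 (7.1e-06), on the log2 scale with SE. All 3 were nearer to control XY than to control XX in CPM and nearer to control XX on the log2 scale, where they differed from it by -3.18 ± 0.17, -3.22 ± 0.15 and -1.63 ± 0.17. All 3 were below the granulosa-arm-only level in both libraries.

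Cdkn1b and Cdkn1c, the cell cycle inhibitors p27 and p57 that mark arrested pregranulosa cells, and Lhx9, a homeobox gene of the early gonad, were also higher in co-expressing than in Sertoli-arm-only cells. Cdkn1b stood at 89.6 and 109 CPM against 47.0 and 42.7 CPM with the Sertoli arm only and 39.7 and 42.9 CPM in control XY. Cdkn1c stood at 458 and 434 CPM, against 192 and 198 CPM with the Sertoli arm only, 65.5 and 46.3 CPM in control XY and 1669 and 1655 CPM in control XX, so that the Sertoli-arm-only level was above control XY as well. Lhx9 stood at 50.3 and 63.6 CPM against 18.8 and 19.1 CPM with the Sertoli arm only, 40.2 and 20.2 CPM in control XY and 172 and 133 CPM with the granulosa arm only. In each case both co-expressing values lay above the Sertoli-arm-only and below the granulosa-arm-only values.

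Runx1, Sp5 and Nr0b1 were well above control XY with the Sertoli arm only as well. Runx1, a transcription factor that helps keep granulosa identity, stood at 88.4 and 103 CPM in co-expressing cells, at 53.6 and 58.6 CPM with the Sertoli arm only, and at 1.27 and 1.67 CPM in control XY. Sp5, a transcription factor induced by WNT signalling, stood at 63.5 and 50.9 CPM, at 57.0 and 47.7 CPM with the Sertoli arm only and at 1.11 and 1.26 CPM in control XY, while granulosa-arm-only cells had 27.8 and 16.8 CPM. For Sp5 the co-expressing and Sertoli-arm-only values overlapped, and for Runx1 they did not. Nr0b1, which encodes the nuclear receptor DAX1, was above both control groups, at 59.6 and 52.8 CPM, with 48.4 and 39.1 CPM with the Sertoli arm only, against 10.8 and 9.62 CPM in control XY and 22.4 and 22.4 CPM in control XX.

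WNT pathway genes were compared with control XY in the same way, with the same limit from the choice of cells. Of 18 tested, 9 were higher and 1 lower (median 1.02), against 11.1% of all genes higher and 7.75% lower. Axin2, a feedback inhibitor of beta-catenin, stood at 33.9 and 36.0 CPM against 8.86 and 7.87 CPM in control XY, Nkd1, another inhibitor, at 37.0 and 32.9 CPM against 3.32 and 2.26 CPM, and Lef1, the nuclear partner of beta-catenin, at 16.0 and 16.9 CPM against 1.27 and 1.00 CPM. With the Sertoli arm only these genes stood at 20.4 and 21.1, 20.3 and 20.6, and 8.36 and 7.15 CPM. Lgr5, an R-spondin receptor, was higher with the Sertoli arm only, at 66.8 and 86.7 CPM, than in co-expressing cells, at 39.3 and 65.8 CPM. Its rise over control XY, from 17.6 and 21.4 CPM, did not pass without dKO XY 2 (adjusted p = 0.0886). Tcf7, a nuclear partner of beta-catenin, was the gene that fell, to 25.7 and 20.2 CPM from 47.8 and 46.9 CPM (adjusted p = 0.00109, and 0.0566 in cells of the middle range of depth). Ctnnb1, beta-catenin itself, stood at 249 and 268 CPM against 261 and 284 CPM and did not pass the test.

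**Figure D5:**
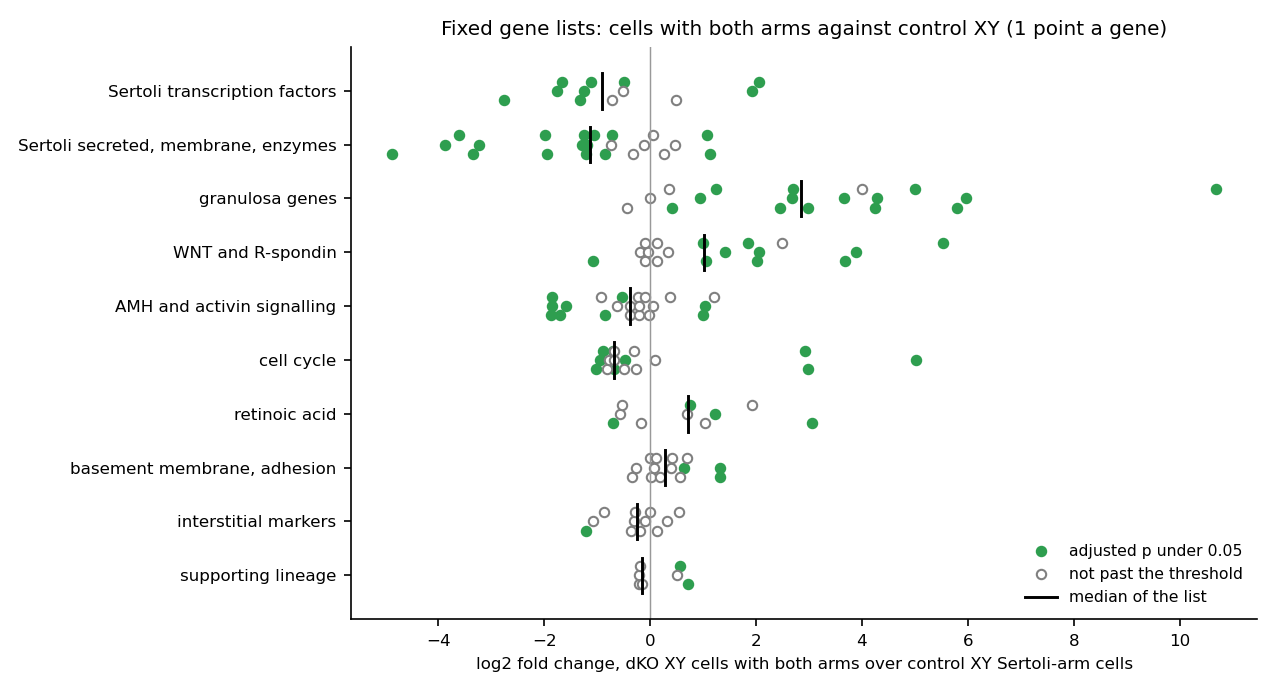
Log2 fold change of each tested list gene in co-expressing cells over control XY Sertoli-arm cells (horizontal axis), by list (vertical axis), with filled points for an adjusted p under 0.05 and a bar at the list median. The granulosa list lies to the right, with 14 of 18 genes higher, and the Sertoli marker list to the left, with 14 of 22 lower.

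The targeted genes and their pathway were read in the same comparison. Amh stood at 10.5 and 14.9 CPM in co-expressing cells against 2357 and 2237 CPM in control XY (-7.49 ± 0.20, adjusted p = 2.18e-08) and Inhbb, the activin B subunit, at 27.7 and 48.7 CPM against 189 and 216 CPM (-2.40 on the log2 scale). Whether the counted ends of these transcripts lie within the deletions was not given in the sources used here. Of 21 genes of the AMH and activin pathway 7 were lower and 2 higher (median -0.37), against 7.75% of all genes lower and 11.1% higher, so that the count of higher genes was near the share over all genes. Inha, the inhibin alpha subunit, stood at 202 and 131 CPM against 578 and 622 CPM, and Smad7, an inhibitory SMAD, at 163 and 111 CPM against 433 and 534 CPM. Acvr1b, Bmpr2, Inhba, Smad2 and Smad6 were the others that fell, and Smad3 and Smad5 those that rose, Smad3 to 36.6 and 31.0 CPM from 15.3 and 16.7 CPM. The calls of Bmpr2, Inhba and Smad2 were lost in some fits without 1 library. Such a fit has 1 library in a group and less power. Amhr2, the AMH receptor, which is counted in the supporting lineage list and not in this one, rose to 406 and 363 CPM from 225 and 235 CPM.

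Cell cycle genes were read against both controls. Of 17, 6 were lower than in control XY and 3 higher (median -0.68), where 7.75% and 11.1% of all genes were, and against control XX 12 were higher and 1 lower, where 15.7% and 13.2% of all genes were. The 3 higher than in control XY were Ccnd1, cyclin D1, at 86.1 and 115 CPM against 3.0 and 3.1 CPM (5.02 ± 0.28, adjusted p = 1.32e-06), Cdkn1a, p21, and Cdkn1c. Cyclin D1 was also high with the Sertoli arm only, at 58.9 and 86.2 CPM. Top2a, a topoisomerase of dividing cells, stood at 176 and 228 CPM, against 308 and 428 CPM in control XY and 28 and 31.2 CPM in control XX (adjusted p against control XY 0.00741, but 0.0672 without dKO XY 1 and 0.0756 without control XY 2). Both co-expressing values of Top2a lay above both control XX values. In the 42 and 32 cells left without deep cells, high doublet scores and granulosa arms under 3 UMIs, Top2a stood at 43.6 and 173 CPM, and Mki67, a marker of dividing cells, at 18.5 and 122 CPM against 92.3 and 156 CPM over all co-expressing cells and 16.2 and 17.2 CPM in control XX. Both genes were lower in the cells left than over all co-expressing cells, above all in dKO XY 1. The control XX sums were not limited by depth or doublet score, so the cells left differ from them in filters as well.

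The 8 largest rises over control XY among abundant called genes without overlap, outside the rule, included those of Rmst, Runx1, Gng13, Sp5, Gxylt2, Podxl and Cpa1, and the 8 largest falls were Amh, Hsd17b1, Sel1l3, Kazald1, Ccl17, Spock2, Spata21 and Tubb3. Rmst, a long noncoding RNA, stood at 66.2 and 27.1 CPM, against 0.474 and 0.0837 CPM in control XY, 1.79 and 3.32 CPM with the Sertoli arm only and 43.0 and 59.2 CPM with the granulosa arm only. Gxylt2, a xylosyltransferase that modifies Notch, stood at 86.1 and 93.2 CPM against 1.74 and 2.01 CPM. Cpa1, a carboxypeptidase, ranged from 43.2 to 191 CPM between the 2 dKO XY libraries. Without dKO XY 2 the calls over control XY were 989 higher and 607 lower, and without control XY 2 they were 948 and 580. In cells of the middle range of depth they were 762 and 532, without cells over 40000 UMIs 996 were higher, and without cells with a Dazl or Dppa5a UMI 702 were lower.

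Against the dKO XY cells with 1 arm, the same cells and genes that the rule split are compared, so the counts are a description. With the library as a block, 1283 of 14279 genes (8.99%) were higher and 1048 (7.34%) lower in co-expressing than in Sertoli-arm-only cells (median -0.01), with 13 granulosa genes of 18 higher and 18 of 22 Sertoli markers lower and 2 higher. Without the block 11 of the 22 were lower and 0 higher. Compared with granulosa-arm-only cells, 1630 (11.4%) were higher and 1471 (10.3%) lower (median 0.001), with 19 of 22 Sertoli markers higher and 9 of 18 granulosa genes lower and 2 higher. The largest rises from the Sertoli-arm-only level were in Irx3, Gng13, Nsg1, Cpa1, Kcne1l, Gxylt2, H19 and Cdc42ep5. H19, an imprinted noncoding RNA, stood at 389 and 308 CPM against 93.2 and 83.4 CPM, and Nsg1, a membrane protein of vesicles, at 33.1 and 40.9 CPM against 6.10 and 6.22 CPM. Without the block the counts were 491 and 306 and 835 and 574, and with DESeq2 805 and 563 and 1042 and 822.

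Markers of other cell types were set beside these values. Over all genes, 11.1% were higher and 7.75% lower than in control XY. The shares were 8.99% and 7.34% against Sertoli-arm-only cells and 11.4% and 10.3% against granulosa-arm-only cells. The 12 interstitial markers, such as Tcf21 and Pdgfra, summed to 655 and 644 CPM in co-expressing cells, 586 and 497 CPM with the Sertoli arm only and 1183 and 1271 CPM with the granulosa arm only. All 12 were lower than with the granulosa arm only and 5 higher than with the Sertoli arm only, and against control XY 0 were higher and 1, Maf, lower, which was lost without dKO XY 2 (adjusted p = 0.0987). The 6 immune markers summed to 8.57 and 2.77 CPM, against 27.6 and 31.0 CPM and 48.4 and 16.4 CPM in the sets with 1 arm. The 9 germ cell markers summed to 79.5 and 92.4 CPM, against 44.0 and 24.3 CPM in control XY, with 4 of 8 tested higher than there and 0 lower, and against 99.7 and 109.7 CPM with the Sertoli arm only. A Dazl or Dppa5a UMI was found in 41.5% and 67.0% of co-expressing cells, 47.8% and 69.6% of Sertoli-arm-only cells and 16.8% and 12.1% of control XY cells, and with the granulosa arm only the values were 48.3 and 56.7 CPM and 29.6% and 54.3% of cells. Both measures were thus lower in co-expressing than in Sertoli-arm-only cells and higher than in granulosa-arm-only cells, with 0 of 8 markers passing as higher and 1 as lower in the first comparison and 3 as higher and 0 as lower in the second. Erythroid markers summed to 853 CPM in dKO XY 2 and 59.998 CPM in dKO XY 1, and stress genes to 6256 CPM in dKO XY 1 and 1917 CPM in dKO XY 2, a gap that Sertoli-arm-only cells shared (5126 and 1679 CPM). Over control XY, 1 of 4 endothelial markers was higher and 1 lower, 1 of 3 epithelial and 1 of 3 rete markers were higher, 1 of 5 pericyte and 1 of 4 erythroid markers were lower, and 0 of 2 immune markers passed the test. In lists this short a count of 1 is not read as a result about the list. The part of these markers in the results was not tested.

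The remaining lists were compared with control XY, where 11.1% of all genes were higher and 7.75% lower. The cord basement membrane and adhesion list had 3 of 14 higher and 0 lower, the retinoic acid list 3 of 10 higher and 1 lower, the supporting lineage list 2 of 7 higher and 0 lower, and the stress list 0 of 8 in either direction. Lamc1, a laminin chain, stood at 54.9 and 63.3 CPM against 21.5 and 24.9 CPM in control XY, and Aldh1a2, a retinoic acid synthase, at 81.8 and 76.6 CPM against 53.6 and 39.9 CPM, though its adjusted p was 0.0661 without dKO XY 1, 0.0568 without dKO XY 2 and 0.117 without control XY 2. Wt1 and Amhr2 were the supporting lineage genes that rose, Wt1 with an adjusted p of 0.126 without dKO XY 2 and 0.150 without control XY 1, and Gata4 stood at 154 and 163 CPM against 170 and 187 CPM without passing the test. Leydig genes had 2 of 6 higher, Star and Hsd3b1, at 17.7 to 46.0 CPM, and Star had an adjusted p of 0.187, 0.0738 and 0.134 without dKO XY 1, dKO XY 2 and control XY 1.

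The genotype comparison that does not use the granulosa arm takes all Sertoli-arm cells of both genotypes, chosen by the same limits. It held 1163 dKO XY cells, of which the co-expressing cells were 170, and 584 control XY cells. By the edgeR test 1269 of 14934 genes (8.5%) were above control XY in these dKO XY cells and 701 (4.69%) were below it (median 0.008). Of the 18 granulosa genes 10 were higher and 0 lower (median 2.04), of the WNT genes 8 of 18 higher and 1 lower, of the Sertoli transcription factors and signals 2 of 12 higher and 3 lower, and of the Sertoli markers 5 of 22 higher and 10 lower. The 3 lower transcription factors and signals became 0 without control XY 2 and 1 without cells over 40000 UMIs or in the middle range of depth, and the 5 higher markers became 3 without dKO XY 1, without control XY 2 or without cells with a Dazl or Dppa5a UMI. Sp5 (5.42 ± 0.20, adjusted p = 1.33e-06), Runx1 (5.34 ± 0.28, 7.96e-06), Ccnd1 (4.62 ± 0.31, 2.27e-05), Tgfbi (4.02 ± 0.20, 6.29e-06) and Fgf9 (2.73 ± 0.18, 2.13e-05) rose, and Amh (-6.81 ± 0.18) and Inha (-2.33 ± 0.12) fell. Sox9 (0.18 on the log2 scale) and Dhh (-0.29) did not pass the test. The counts fell to 785 and 417 without dKO XY 2, to 704 and 457 without control XY 1, to 556 and 307 without control XY 2, to 746 and 400 without cells over 40000 UMIs and to 739 and 428 in cells of the middle range of depth.

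Set on a line from control XY (0) to control XX (1), over 680 to 808 genes that differed between these controls, the co-expressing cells stood at 0.467 in dKO XY 1 and 0.415 in dKO XY 2 (0.441 ± 0.0369, SD, n = 2). Sertoli-arm-only cells stood at 0.160 ± 0.00483 and granulosa-arm-only cells at 0.710 ± 0.0567. The genes higher in control XX gave 0.509 ± 0.0803 for the co-expressing cells and those higher in control XY 0.385 ± 0.00236. The order of the 3 sets was the same in both libraries, and no set reached either control.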

How the data were processed

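Single-cell RNA was captured on the 10x Genomics platform from E15.5 gonads, with 2 libraries a group. The deposited values were UMI counts per gene and cell: the authors aligned reads to the mm10 mouse genome with Cell Ranger, corrected for barcode swapping and used Seurat downstream, and the counts were not normalized. Cells with over 2500 and under 9000 genes, under 25% mitochondrial and under 20% Hbb UMIs were kept, as the authors did. Counts were summed by library and cell set, and libraries were the replicates. Sums were tested with edgeR 4.0.16 (filterByExpr, TMM, quasi-likelihood F test, Benjamini-Hochberg) in R 4.3.3, one fit for the co-expressing and both control sets, one for the dKO XY sets with the library as a block, and one for all Sertoli-arm cells. The study's own comparisons of clusters over cells were replaced by these sums. Library numbers did not pair samples across groups. In the fits with controls, adjusted p-values measure the spread between the 2 libraries of each group, control XX included. In the fit of the dKO XY sets, which share the same 2 libraries, they measure the spread left after the block. Where a library was left out, its group held 1 library and the spread came from the other groups. A call lost there does not show that it rested on that library. Doublet scores came from Scrublet in scanpy 1.11.5. The tests were tried first on simulated counts with the mean levels and library sizes of these data. The spread between simulated libraries was a set value, not estimated from these data, and the shares below hold for that value. There edgeR called 28% to 49% of 2-fold and 88% to 94% of 4-fold changes with the right sign, by comparison. A gene that did not pass can thus still differ. The cells and gene lists were chosen with earlier results of these data known. Genes were named from the lists and by the 8 largest rises and falls of called genes whose libraries did not overlap and whose log2 CPM averaged 5 or more. A few genes that entered the counts are not reported here.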

Additional observations from a re-analysis of the deposited data

How the results depend on the processing

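The counts of called genes moved under several settings, and so did the calls of some named genes. Each pair below gives genes higher and then lower in co-expressing cells. Against control XY the counts were 996 higher without cells over 40000 UMIs, 702 lower without cells with a Dazl or Dppa5a UMI, and 762 and 532 in the middle range of depth (19172 to 39678 UMIs). Leaving out 1 library gave 948 to 1589 higher and 580 to 1107 lower. Against control XX they were 1131 and 740 without cells over 40000 UMIs, 956 lower without the germ cell UMIs, and 993 and 666 in the middle range, with 1393 to 2121 and 903 to 1806 on leaving out 1 library. Against Sertoli-arm-only cells DESeq2 gave 805 and 563, no replicate block 491 and 306, no germ cell UMIs 841 and 620 and the middle range 560 and 466. Against granulosa-arm-only cells the same settings gave 1042 and 822, 835 and 574, 835 and 684, and 636 and 525, and leaving out cells over 40000 UMIs gave 733 and 568. All Sertoli-arm cells against control XY gave 746 and 400 without cells over 40000 UMIs, 739 and 428 in the middle range, and 556 to 1325 and 307 to 812 on leaving out 1 library. Limits on depth and on germ cell UMIs also left fewer cells, with 55 and 47 co-expressing cells at 40000 UMIs or fewer, so depth and cell number cannot be told apart. DESeq2 and the fit with no replicate block used the same cells and libraries, and the cause was not tested.

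The share of Sertoli-arm cells with both arms was 20.3%, 30.6% and 3.93% in dKO XY 1, dKO XY 2 and control XY 1 after thinning, and 0 in control XY 1 without the highest doublet scores. The position on the control axis was 0.487 without the highest doublet scores, 0.520 without cells over 40000 UMIs, 0.486 in the middle range and 0.415 to 0.467 with 1 dKO XY library. The median of Sertoli genes per cell was 14.5, 14, 14 and 14.5 without the highest doublet scores, without deep cells, without germ cell UMIs and in the middle range, and that of granulosa genes 6.5 and 5.5 in the first and the last of these. The middle range and a minimum of 3 UMIs for the granulosa arm were chosen after the data had been seen.

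Library numbers were the same across groups, but the correlations of the deviations of same-numbered libraries from their group means were 0.0860, -0.0674 and -0.193. With the number as a replicate block the counts were 1418 and 987 against control XY, 1980 and 1591 against control XX, and 1048 and 538 for all Sertoli-arm cells. Leaving out a library from the comparison of dKO XY sets with the block leaves no spread to test and was not run.

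Over the genes named with a test, 1559 of the values under an alternative kept their side of the threshold, 71 lost the call, 3 gained it and 1 turned. Values called in neither fit count as kept. In the middle range of depth 16 lost the call and 109 kept their side. The direction was compared only where the main fit or the alternative called the gene. The gene that turned was Irx5 against control XY, with a log2 fold change of -3.335 without cells with a Dazl or Dppa5a UMI (adjusted p = 0.788).

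Limits were set by depth in cells, since 100 CPM is a single UMI at 10000 UMIs, and by 2 libraries a group.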
